A study of Mus musculus with 63 samples.

Results

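The 7 genes described here handle zinc in brain tissue: the metallothioneins Mt1, Mt2 and Mt3 and the zinc transporters Slc30a1, Slc30a3, Slc30a4 and Slc30a10. They were taken by symbol from gene-level count tables that list 55291 symbols, and all 7 were present and passed the low-count filter in every comparison. The cultures were organotypic slices of entorhinal cortex and hippocampus from early postnatal mice of either sex, kept in vitro for more than 2 weeks. Cultures came from C57BL/6J mice (Synpo+/+) or from B6.129-Synpotm1Mndl/Dllr mice (Synpo-/-), a backcrossed strain with a constitutive defect of Synpo, the gene of the actin-binding protein synaptopodin. Entorhinal cortex lesion (ECL) cut the perforant path, the input from the entorhinal cortex to both the dentate gyrus and CA3. Lesioned cultures were collected 3 days later, per the study's methods.

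In the regional experiment, each library held polyadenylated RNA of 1 microdissected piece, dentate gyrus (DG) or CA3, of 1 culture. The Synpo+/+ groups held 2 CA3 control, 3 CA3 ECL, 4 DG control and 7 DG ECL libraries, and the Synpo-/- groups held 6, 6, 7 and 4. In the coIP experiment, 6 cultures were pooled per lysate, part of the lysate was kept as input, and RNA bound to an anti-synaptopodin antibody on beads was recovered from the rest. This experiment held 5 input and 5 coIP libraries each for Synpo+/+ control and Synpo+/+ ECL, and 2 of each for Synpo-/-, whose lesion state the labels do not give. The last lysates serve as the control for RNA that the beads hold without synaptopodin.

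Zinc is stored and buffered by metallothioneins, small cysteine-rich proteins. Mt1 and Mt2 are induced by zinc through the zinc-sensing factor MTF1, and by glucocorticoids and inflammatory signals through other factors, whereas Mt3 is the brain-enriched form and responds little to metals. SLC30 (ZnT) proteins move zinc out of the cytosol, either across the plasma membrane (Slc30a1) or into organelles, and SLC39 (ZIP) proteins bring it in. Slc30a3 loads zinc into synaptic vesicles and is known for the mossy fibres, the axons of dentate granule cells that end in CA3.

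The 3 metallothioneins lie next to each other on the plus strand of chromosome 8. In GRCm38, Mt3 (ENSMUSG00000031760.9) spans 94152607 to 94154146, Mt2 (ENSMUSG00000031762.7) spans 94172664 to 94173568, and Mt1 (ENSMUSG00000031765.8) spans 94179082 to 94180327. MTF1 binds metal response elements, whose cores are searched here as TGCACNC and TGCGCNC on both strands. Across libraries Mt1 and Mt2 followed each other and Mt3 followed them less closely, and a part of the core matches in this was not tested. The RefSeq sequences (GRCm38.p6) before the start sites of the 3 genes are shown. The stretches of Mt2 and Mt3 end at the last base before the RefSeq start, and that of Mt1 ends at the last base before the GENCODE start, which lies upstream of its RefSeq start. Each runs 5′ to 3′ and has core matches in capitals.

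Mt1, chr8:94178839-94179081, plus strand: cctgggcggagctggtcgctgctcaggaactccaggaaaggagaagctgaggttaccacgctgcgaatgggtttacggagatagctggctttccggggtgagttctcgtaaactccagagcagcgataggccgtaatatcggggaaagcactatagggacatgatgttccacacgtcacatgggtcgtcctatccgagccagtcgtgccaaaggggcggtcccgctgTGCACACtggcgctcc

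Mt2, chr8:94172368-94172617, plus strand: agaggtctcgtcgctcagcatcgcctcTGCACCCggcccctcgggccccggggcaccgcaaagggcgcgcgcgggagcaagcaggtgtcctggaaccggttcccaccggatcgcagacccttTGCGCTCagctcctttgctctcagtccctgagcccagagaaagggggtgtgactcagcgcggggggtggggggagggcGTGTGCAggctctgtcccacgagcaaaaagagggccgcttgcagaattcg

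Mt3, chr8:94152357-94152606, plus strand: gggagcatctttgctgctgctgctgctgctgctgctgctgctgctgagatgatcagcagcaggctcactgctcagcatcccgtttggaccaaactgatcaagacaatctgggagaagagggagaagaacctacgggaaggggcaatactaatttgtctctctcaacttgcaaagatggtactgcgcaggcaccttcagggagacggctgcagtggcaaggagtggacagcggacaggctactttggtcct

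In the whole 300-base window of each gene (250 bases before the start and 50 after), Mt1 held 3 core matches, Mt2 held 4 and Mt3 held 1. The windows follow annotated starts, and where transcription begins was not measured, so the counts hold for these windows only. A pair of the Mt1 matches lay just after the annotated RefSeq start, 18 bases apart from first base to first base, in this stretch.

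Mt1, chr8:94179091-94179115, plus strand: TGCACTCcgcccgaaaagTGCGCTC

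Of 32851 RefSeq windows of this length, 25.7% held at least 1 core and 1.97% held 3 or more. The transporters were searched in the same way. Slc30a1 held 2 matches, Slc30a4 held 3, the 2 windows of Slc30a3 held 1 and 0, and Slc30a10 held 3, of which 2 were the same bases read on opposite strands. A match is only a run of letters, and binding was not measured.

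The levels below are CPM, counts scaled to library size with trimmed-mean (TMM) factors, and where genes are compared the CPM is divided by exon length in kilobases. Over the 39 regional libraries, Mt1 was by far the most abundant of the 7 genes per kilobase, with a median of 2087 CPM per kb (1338 to 2932). Mt3 followed at 545 CPM per kb (349 to 821), then Slc30a4 at 11.6 (9.19 to 14.3), Slc30a1 at 3.55 (2.76 to 4.69), Slc30a3 at 3.10 (0.958 to 6.51) and Slc30a10 at 1.21 (0.703 to 2.44). The ranges of Slc30a1 and Slc30a3 overlapped, as did those of Slc30a3 and Slc30a10, so these neighbours were not separated by their spread, whereas the other neighbours did not overlap. The annotated exons of Mt1 cover the whole gene, introns included, so its level per kilobase is an underestimate for the spliced transcript. Mt2 had 81.4 CPM (49.4 to 119), but 432 bases of its exons (73.5%) overlap an antisense gene, Gm45774, and reads were counted without regard to strand, so its place in the order is uncertain. The transporters lie apart from each other. Slc30a1 (ENSMUSG00000037434.7) is on the plus strand of chromosome 1 from 191906767 to 191913247 and Slc30a10 (ENSMUSG00000026614.7) on the same strand from 185454848 to 185468762. Slc30a3 (ENSMUSG00000029151.14) is on the minus strand of chromosome 5 from 31086106 to 31108237, and Slc30a4 (ENSMUSG00000005802.12) on the minus strand of chromosome 2 from 122681233 to 122702663. Overlaps with antisense genes covered 8.92% of the exons of Slc30a1, 8.19% of Slc30a10 and 2.37% of Slc30a4.

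**Figure D1:**
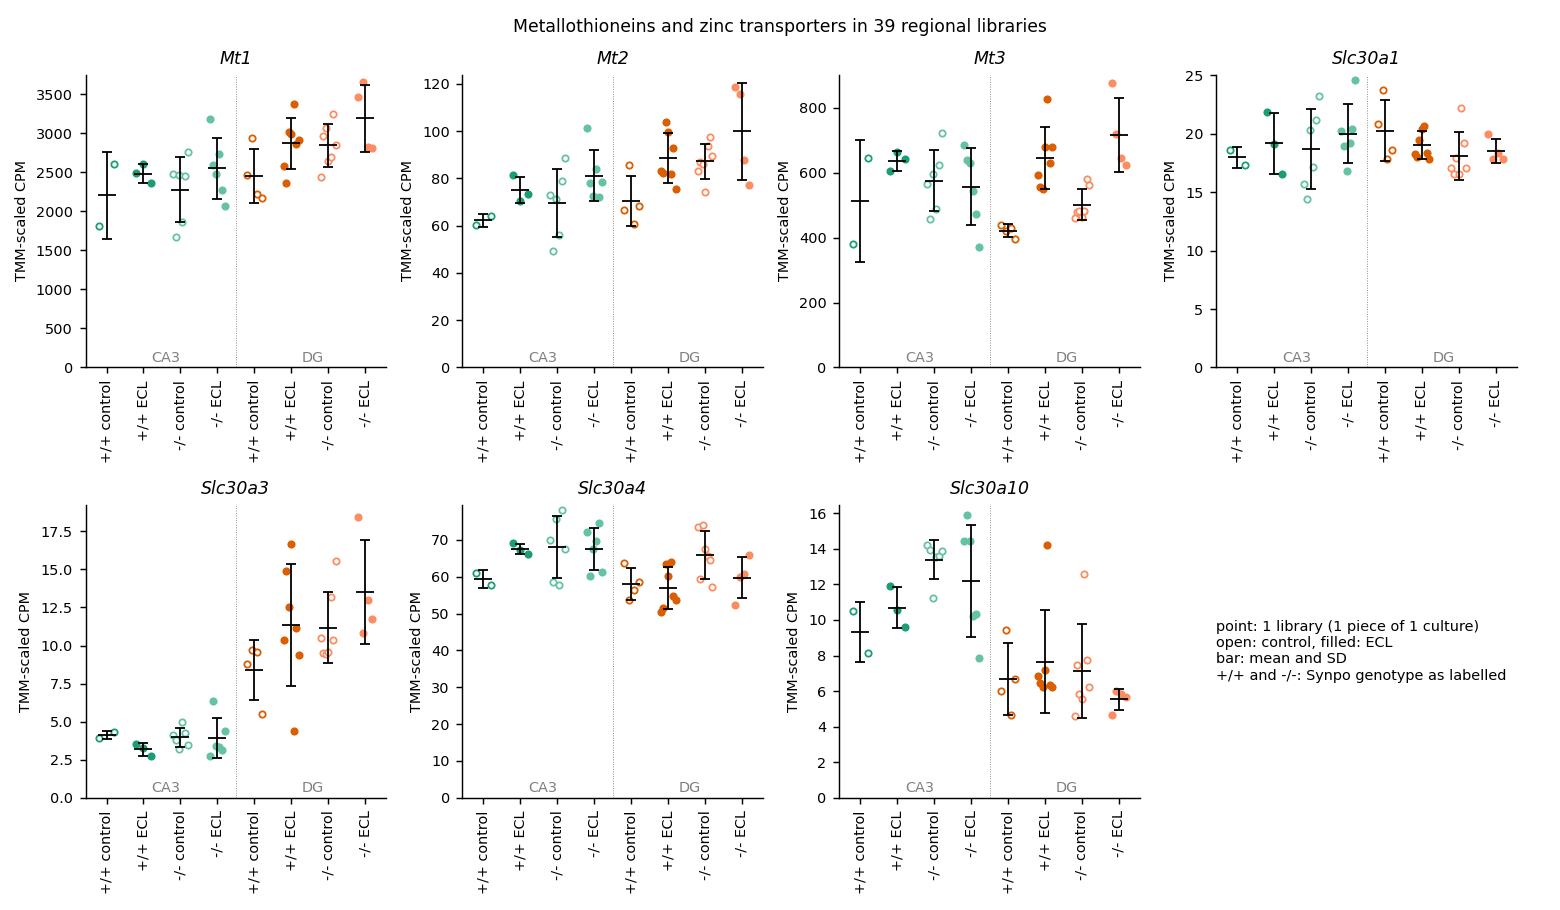
Levels of the 7 genes in the 39 regional libraries, by region, genotype and lesion, in TMM-scaled CPM on linear axes from 0. Each point is 1 library, open for control and filled for ECL, and bars give the mean and SD of the group. Mt3 in the DG shows no overlap between control and ECL in either genotype, and Slc30a3 is higher in the DG than in CA3.

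Total counts ran from 11601154 to 53682143 over the 63 libraries, and no pair of libraries of the same group agreed within counting noise. Pairs across groups were not compared. Prox1, the identity factor of dentate granule cells, was at 12.7 to 44.0 CPM in CA3 and at 120 to 217 CPM in DG libraries, with a single exception. Synpo+/+ DG ECL replicate 5 had 15.5 CPM of Prox1 and a summed level of 9 granule cell markers of 90.9 CPM, against 480 or more in its group, so it goes against its label. Its 5 CA3 pyramidal markers summed to 521 CPM, against 162 to 204 CPM in the rest of its group. Results that rest on this library are given with and without it. A marker sum for meninges and choroid plexus, led by the choroid gene Ttr, was 2336 and 6068 CPM in Synpo+/+ DG ECL replicates 1 and 3 and 8695 CPM in Synpo-/- DG ECL replicate 2, and at most 195 CPM in the other regional libraries. Synpo itself stood at 19.1 to 38.4 CPM in Synpo+/+ and at 30.4 to 69.3 CPM in the regional libraries labelled Synpo-/-, so reads per gene do not check this allele and genotypes are as labelled.

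The lesion comparison asks how the DG and CA3, both partly denervated by the lesion per the study, differ from control. Among the metallothioneins, Mt3 rose in the lesioned DG of both genotypes, while Mt1 and Mt2 did not pass the test. In Synpo+/+ DG control, Mt3 was at 440, 420, 431 and 396 CPM, and in Synpo+/+ DG ECL it ran from 550 over a median of 629 to 826 CPM. Every ECL library lay above every control library, and the highest value belonged to replicate 5, the library with little Prox1. The share of all genes without such overlap was not counted, so here and below a lack of overlap only describes the values.

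In the Synpo-/- DG, Mt3 ran from 462 over a median of 482 to 581 CPM in the 7 controls. It was at 875, 720, 646 and 624 CPM after ECL, again with no overlap. The group means were 422 ± 19.0 (SD, n = 4) and 644 ± 95.8 CPM (SD, n = 7) in Synpo+/+, and 502 ± 48.9 (SD, n = 7) and 716 ± 114 CPM (SD, n = 4) in Synpo-/-.

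On the log2 scale Mt3 was higher by 0.58 (SE 0.118, adjusted p = 0.00727) in Synpo+/+ and by 0.47 (SE 0.104, adjusted p = 0.00946) in Synpo-/-, by the quasi-likelihood test of edgeR, with adjustment by Benjamini-Hochberg over all genes tested. Mt3 was the only 1 of the 7 genes called in each of these comparisons, where 12.2% and 8.53% of all genes tested were called and 7.86% and 5.17% were called higher. Without replicate 5 the Synpo+/+ difference was 0.50 (adjusted p = 0.00245) over ECL values of 550 to 678 CPM. Without the Ttr-rich replicates 1 and 3 it was 0.65 (adjusted p = 0.0156). With a trend of the differences on exon length removed, it was 0.38 (adjusted p = 0.0252), and the median over all genes then moved from 0.00 to -0.14.

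Mt1 and Mt2 did not pass the test in the same libraries. In the Synpo+/+ DG, Mt1 had 2467, 2941, 2225 and 2177 CPM in controls and 2360 to 3377 CPM (median 2919) after ECL, a log2 difference of 0.20 (SE 0.13, adjusted p = 0.277). Mt2 differed by 0.31 (adjusted p = 0.102) there, and both genes overlapped between control and ECL. In Synpo-/- DG the differences were 0.12 (adjusted p = 0.582) for Mt1 and 0.15 (adjusted p = 0.506) for Mt2, with overlap in each. Mt3 counts as a share of Mt1 counts had a median of 18.0% (14.3 to 19.4%) in Synpo+/+ DG controls and 22.9% (18.2 to 24.5%) after ECL. In Synpo-/- the medians were 17.9% (15.7 to 19.8%) and 22.5% (19.7 to 25.3%), so the ranges of control and ECL touched in both genotypes.

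Mt3 is expressed by both neurons and astrocytes, and glial markers moved with the lesion. The summed level of 12 astrocyte markers, none at 0 in any group, was 5221 to 5967 CPM in Synpo+/+ DG controls and 7756 to 9925 CPM after ECL. In Synpo-/- it was 5531 to 6473 and 8171 to 10451 CPM, and 6 and 7 of the 12 markers were called higher. Microglial markers also separated the groups, from 556 to 745 CPM against 1391 to 1721 CPM in Synpo+/+ and from 678 to 1393 CPM against 1451 to 1931 CPM in Synpo-/-, with 12 and 10 of 12 markers called higher. In such bulk tissue, more cells of a type and more RNA per cell cannot be told apart, and the part of the glial markers in the Mt3 difference was not tested.

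**Figure D2:**
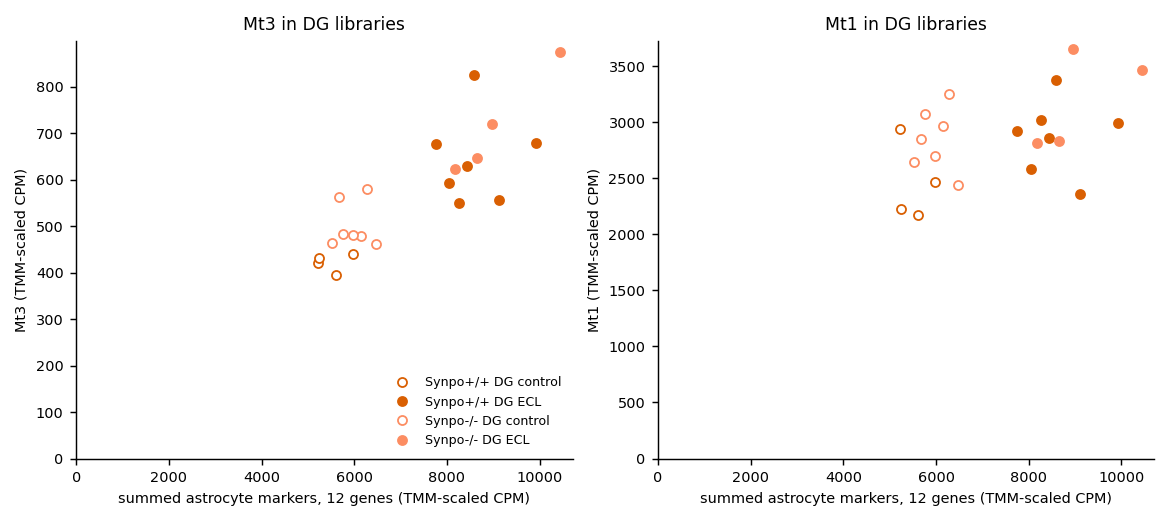
Mt3 (left) and Mt1 (right) in the 22 DG libraries against the summed level of 12 astrocyte markers, both in TMM-scaled CPM, with 1 point per library, open for control and filled for ECL. ECL libraries lie to the right in both panels, and they lie above all controls of their genotype for Mt3 but overlap them for Mt1.

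In CA3 none of the 7 genes was called after ECL, where 1.78% of all genes were called in Synpo+/+ and 0.0770% in Synpo-/-. The count was 0 of 7 in both genotypes by edgeR and by DESeq2, and 0 had an unadjusted p under 0.05. Mt3 was at 379 and 646 CPM in the 2 Synpo+/+ CA3 controls and at 604, 665 and 644 CPM after ECL, a difference of 0.21 (adjusted p = 0.511). The 2 controls were further apart than the groups, and without control replicate 2 (646 CPM) Mt3 was called, at 0.68 (adjusted p = 0.0418). In Synpo-/- CA3, Mt3 ran from 459 to 722 CPM in controls and from 372 to 684 CPM after ECL, a difference of -0.04 (adjusted p = 0.968).

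Whether the lesion acted differently in the DG than in CA3 was tested as an interaction. For Mt3 it was 0.33 (adjusted p = 1.00) in Synpo+/+ and 0.49 (adjusted p = 0.266) in Synpo-/-, so a difference between the regions was not shown. In these interactions 0% and 1.12% of all genes were called.

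The transporters did not pass the test after ECL. Slc30a1, the plasma membrane exporter, had log2 differences of -0.12 and 0.00 in the DG of Synpo+/+ and Synpo-/- and of -0.01 and 0.11 in CA3. Slc30a4, an exporter of endosomes and other vesicles, differed by -0.06 and -0.19 in the DG. Slc30a3 had 8.80, 9.67, 9.58 and 5.47 CPM in Synpo+/+ DG controls and 4.39 to 16.7 CPM (median 11.1) after ECL, a difference of 0.41 (SE 0.27, adjusted p = 0.303). Without replicate 5, which had the lowest ECL value, this was 0.53 (adjusted p = 0.0590). In Synpo-/- it differed by 0.23 (adjusted p = 0.457). Slc30a10, an exporter better known for manganese than for zinc, differed by 0.18 and -0.39 in the DG, and the first value was -0.06 without replicate 5.

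Other genes of zinc handling were read from lists of family members. Of the 13 SLC39 importers tested, 2 rose in the lesioned DG of Synpo+/+ and the same 2 genes rose in Synpo-/-, where 7.86% and 5.17% of all genes tested rose, so with so few members the counts set the importers apart in neither genotype. They were Slc39a1, a plasma membrane importer (0.53, adjusted p = 0.00542, and 0.48, adjusted p = 0.00465), and Slc39a12, a brain importer of astrocytes and neurons (0.58, adjusted p = 0.00778, and 0.43, adjusted p = 0.0235). Slc39a10 fell by 0.42 on the log2 scale (adjusted p = 0.0217) in Synpo-/- and differed by -0.10 in Synpo+/+, and the difference of the 2 lesion effects did not pass (-0.35, adjusted p = 0.478). None of the other SLC30 exporters was called, 0 of 6 in Synpo+/+ and 0 of 5 in Synpo-/-, and neither was Mtf1. The median log2 difference of the importers was 0.05 and -0.01, beside 0.00 and 0.01 over all genes.

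Copper is bound by the same metallothioneins, and 4 of 8 copper-handling genes rose in the lesioned Synpo+/+ DG, with a median difference of 0.41, beside 12.2% of all genes called and 7.86% higher. The strongest calls were Ccs, the copper chaperone of superoxide dismutase (0.63, adjusted p = 0.00410), and Slc31a1, the main copper importer (0.80, adjusted p = 0.0116). In Synpo-/- 1 of 8 rose, Slc31a2 (0.43, adjusted p = 0.0184), with a median of 0.24, beside 8.53% of all genes called. Of 7 subunits of AP-3, the adaptor that sorts ZnT3 into synaptic vesicles, Ap3d1 rose in Synpo+/+ (0.43, adjusted p = 0.0328) and 0 of 7 were called in Synpo-/-, by edgeR, so the AP-3 counts lie near the shares over all genes. In the interaction of genotype with lesion in the DG, 0 of 13 importers, 0 of 8 copper genes and 0 of 7 AP-3 subunits were called, and a difference between the genotypes was not shown.

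The region comparison sets DG against CA3 pieces. Slc30a3, the vesicular zinc transporter, was higher in the DG in all 4 sets of libraries, and Slc30a10 was lower in the DG of Synpo-/-. In Synpo+/+ controls Slc30a3 was at 3.94 and 4.31 CPM in CA3 and at 8.80, 9.67, 9.58 and 5.47 CPM in the DG. In Synpo+/+ ECL it was at 3.54, 3.30 and 2.72 CPM in CA3 and at 4.39 to 16.7 CPM (median 11.1) in the DG. The lowest DG library, at 4.39 CPM, was again replicate 5, which goes against its label. It lay above the 3 CA3 libraries of its comparison but within the 2.77 to 6.34 CPM of Synpo-/- CA3 ECL. The other DG libraries ran from 9.35 to 16.7 CPM.

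In Synpo-/- controls Slc30a3 ran from 3.22 over a median of 3.97 to 4.96 CPM in CA3 and from 9.43 over 10.4 to 15.6 CPM in the DG. In Synpo-/- ECL it ran from 2.77 over 3.39 to 6.34 CPM in CA3 and was at 18.4, 10.8, 13 and 11.8 CPM in the DG. No DG library thus fell within the CA3 range of its own comparison, but the Synpo+/+ comparisons had only 2 and 3 CA3 libraries. With so few libraries a lack of overlap carries little weight.

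The log2 differences of Slc30a3, DG minus CA3, were 1.03 (SE 0.26, adjusted p = 0.0352) in Synpo+/+ controls, where 1 of the 7 genes and 5.39% of all genes were called, and 1.90 (SE 0.33, adjusted p = 0.0256) in Synpo+/+ ECL, where 1 of the 7 and 2.05% of all genes were called. In Synpo-/- they were 1.59 (SE 0.15, adjusted p = 1.71e-07) in controls and 1.78 (SE 0.22, adjusted p = 7.12e-05) after ECL, where 4 and 2 of the 7 genes and 25.5% and 13.6% of all genes were called. The Synpo+/+ calls rest on few CA3 libraries. In controls the call was lost without any of 5 of the 6 libraries (all but DG replicate 4; adjusted p 0.0610 to 0.159), and after ECL it was lost without any of the 3 CA3 libraries (adjusted p up to 0.166) and without both Ttr-rich DG libraries (1.86, adjusted p = 0.140). The direction held in each case, and without replicate 5 the ECL difference was 2.02 (adjusted p = 1.87e-06).

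Slc30a10 showed the opposite order. In Synpo-/- ECL it was at 7.85 to 15.9 CPM (median 12.4) in CA3 and at 4.66, 5.99, 5.84 and 5.65 CPM in the DG, without overlap, a log2 difference of -1.12 (SE 0.19, adjusted p = 0.000892). In Synpo-/- controls it was at 11.2 to 14.2 CPM (median 13.7) in CA3 and 4.57 to 12.6 CPM (median 6.22) in the DG, a difference of -0.82 (SE 0.16, adjusted p = 0.000979). The overlap came from DG replicate 5 at 12.6 CPM, and without it the difference was -1.02 (adjusted p = 1.02e-05). In Synpo+/+ the differences were -0.47 (adjusted p = 0.381) in controls and -0.42 (adjusted p = 0.322) after ECL. In the latter, DG replicate 5 had 14.2 CPM against 6.22 to 7.19 in the rest of its group, and without it Slc30a10 was called lower in the DG (-0.66, adjusted p = 0.00209).

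**Figure D3:**
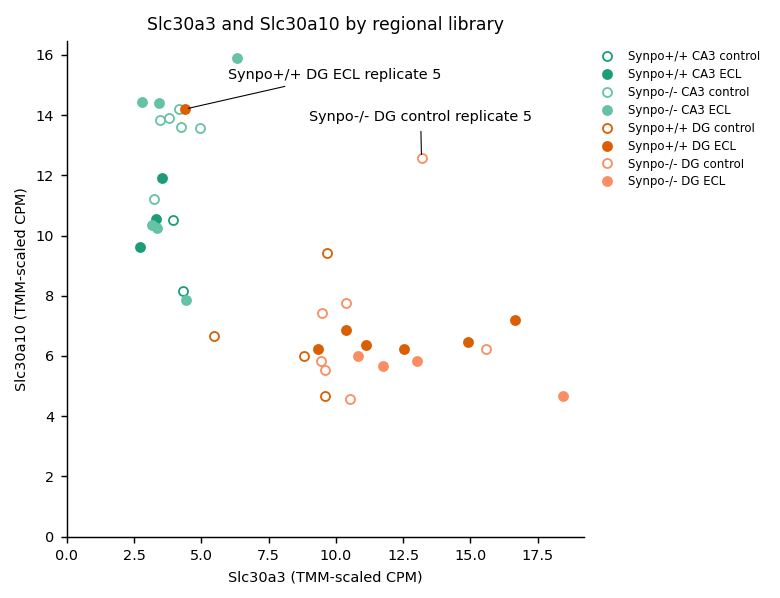
Slc30a10 against Slc30a3 in the 39 regional libraries, both in TMM-scaled CPM, with 1 point per library coloured by region and genotype, open for control and filled for ECL. CA3 libraries lie at low Slc30a3 and DG libraries at low Slc30a10, with 3 DG libraries above the lowest CA3 value of Slc30a10 (7.85 CPM), which are Synpo+/+ DG ECL replicate 5 (14.2 CPM), among the CA3 libraries, Synpo-/- DG control replicate 5 (12.6 CPM) and Synpo+/+ DG control replicate 2 (9.43 CPM).

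Mt1 and Mt2 were each higher in the DG of Synpo-/- controls, by 0.43 (adjusted p = 0.00537 and 0.00478). Mt1 ran from 1667 over 2459 to 2758 CPM in CA3 and from 2436 over 2851 to 3248 CPM in the DG, and the ranges overlapped. In the other 3 sets the differences were smaller and not called, at 0.17, 0.28 and 0.33 for Mt1 and 0.19, 0.30 and 0.31 for Mt2. Mt3, Slc30a1 and Slc30a4 were not called between the regions, with log2 differences from -0.26 to 0.38.

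The cell content of the pieces differed in the same comparisons. All 9 granule cell markers were called higher in the DG in both sets of controls and 8 of 9 after ECL. General neuron and oligodendrocyte markers summed higher in CA3 pieces of both sets of controls by their medians. In Synpo+/+ controls, 6 general neuron markers summed to 6462 to 6977 CPM in CA3 and 3549 to 4476 CPM in the DG, and 10 oligodendrocyte markers to 1354 to 2119 and 567.7 to 980.0 CPM. Glial markers also moved between the regions. In Synpo-/- ECL, 6 of 12 astrocyte and 8 of 12 microglial markers were called higher in the DG, with astrocyte sums of 5357 to 8018 CPM in CA3 and 8171 to 10451 CPM in the DG and microglial sums of 767 to 1326 and 1451 to 1931 CPM. In Synpo-/- controls, 4 astrocyte and 2 microglial markers were called lower in the DG, with astrocyte sums of 6726 to 7833 and 5531 to 6473 CPM. Over all genes 25.5% were called in Synpo-/- controls and 13.6% in Synpo-/- ECL. The astrocyte and microglial counts lie near that share in the controls only. In Synpo+/+, at most 1 marker of the astrocyte or the microglial list was called in a comparison. Of 10 oligodendrocyte markers, 10 were called lower in the DG of Synpo-/- controls and 7 in Synpo+/+ controls, where 5.39% of all genes were called. After ECL, 2 of 10 were called lower in Synpo-/- and 0 in Synpo+/+. The part of cell content in these differences was not tested.

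Among the other genes of zinc handling, Slc39a6 was higher in the DG in Synpo+/+ controls (0.95, adjusted p = 0.00328), Synpo-/- controls (0.70, adjusted p = 4.21e-05) and Synpo-/- ECL (0.65, adjusted p = 0.000743). Slc30a9, a mitochondrial zinc transporter, was lower in the DG of Synpo-/- (-0.30 in controls and -0.44 after ECL, adjusted p = 0.00796 and 0.00390). Slc30a5 was higher by 0.26 (adjusted p = 0.00855) in Synpo-/- controls. Of the 13 importers tested, 1 was called higher in Synpo+/+ controls, 0 in Synpo+/+ ECL, 2 higher and 1 lower in Synpo-/- controls, and 2 higher in Synpo-/- ECL. Over all genes 5.39%, 2.05%, 25.5% and 13.6% were called in these comparisons, so the importers were called about as often as genes at large. The AP-3 subunits that passed were lower in the DG, 1 of 7 in Synpo+/+ controls (Ap3s1, -0.60), 2 in Synpo-/- controls (Ap3b2, -0.35, and Ap3m2, -0.34) and 1 after ECL (Ap3b2, -0.37). Ap3b2 is the neuronal form of its subunit. Ceruloplasmin (Cp), a copper-carrying ferroxidase, was lower in the DG of Synpo-/- by 0.43 and 0.69 on the log2 scale.

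The genotype comparison sets Synpo-/- against Synpo+/+ within a region and lesion state. Over the 4 comparisons, 0 of 28 member differences were called by edgeR and 0 by DESeq2, and 5 had an unadjusted p under 0.05. Of all genes, 0.00413% and 0.00891% were called in CA3 (control and ECL) and 0.0166% in each of the DG comparisons, so few genes of any kind passed. In DG controls, Mt3 was at 396 to 440 CPM in Synpo+/+ and 462 to 581 CPM in Synpo-/-, without overlap, a difference of 0.22 (SE 0.09, adjusted p = 0.266). Mt2 differed by 0.28 (adjusted p = 0.233) and Slc30a3 by 0.39 (adjusted p = 0.293) in the same libraries, and Slc30a10 by 0.46 (adjusted p = 0.212) in CA3 controls. Slc30a10 in the lesioned DG differed by -0.49, which became -0.26 without Synpo+/+ replicate 5.

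A difference of the lesion effects between the 2 genotypes was not shown. For Mt3 in the DG the difference of the lesion effects was -0.15 (SE 0.16, adjusted p = 0.660). Over the 5 interaction tests, 0 of 35 member values were called by edgeR and 0 by DESeq2, and 1, that of Mt3 for region by lesion in Synpo-/-, had an unadjusted p under 0.05. Over all genes, 0% and 0.00381% were called in the interactions of genotype with lesion in CA3 and DG.

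The coIP comparison asks which mRNAs were recovered with synaptopodin. All 3 metallothioneins were lower in coIP than in input of Synpo+/+ cultures, and Slc30a1 was higher. In control cultures Mt1 was at 691, 676, 655, 760 and 640 CPM in the inputs and at 328, 384, 160, 458 and 393 CPM in the coIPs, and the ranges did not overlap. Mt3 was at 192, 237, 194, 214 and 189 CPM in the inputs and at 105, 164, 63.0, 153 and 136 CPM in the coIPs, also without overlap.

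In control cultures the log2 differences, coIP minus input, were -0.97 for Mt1 (SE 0.20, adjusted p = 0.000709), -0.96 for Mt2 (adjusted p = 0.0128) and -0.70 for Mt3 (adjusted p = 0.00601). After ECL they were -1.21, -1.17 and -0.95 (adjusted p = 0.00488, 0.0168 and 0.00869). In each comparison 4 of the 7 genes were called, and 55.0% of all genes were called in controls and 58.3% after ECL, so that a call by itself sets no gene apart. Within lysates, Mt1, Mt2 and Mt3 were lower in coIP in 5 of 5 control pairs and 4 of 5 ECL pairs. The exception was ECL replicate 3, whose input held 336 CPM of Mt1 against 699 to 898 in the other inputs.

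The lysates labelled Synpo-/- were compared in the same way. Mt1 was at 790 and 660 CPM in the inputs and at 545 and 325 CPM in the coIPs, a difference of -0.77 (adjusted p = 0.0134), and Mt3 differed by -0.61 (adjusted p = 0.0250), where 3 of the 7 genes and 31.4% of all genes were called. Mt2 differed by -0.12 (adjusted p = 0.749). The calls of Synpo-/- rest on 2 inputs and 2 coIPs. Their preparation numbers and replicate numbers cross in the labels, so which input goes with which coIP is uncertain. Pairs here follow the preparation number, and Mt1, Mt3 and Slc30a1 take the same directions under either pairing. Mt2 rises in 1 pair and falls in the other under either pairing, and which input it rises from depends on the pairing. By DESeq2 Mt1 was not called (adjusted p = 0.106), and Mt3 was lost without coIP replicate 2 or input replicate 1.

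The metallothionein transcripts are short, and coIP values moved with exon length over all genes. With that trend removed, none of the 3 metallothioneins was called in any of the coIP comparisons. Mt1 was then at -0.34 (adjusted p = 0.0972), -0.50 (adjusted p = 0.114) and -0.39 (adjusted p = 0.115) in Synpo+/+ control, Synpo+/+ ECL and Synpo-/-, and Mt3 at -0.04, -0.20 and -0.22. With the lysate as a block beside the length trend, an alternative added after seeing the data, Mt1 passed in Synpo+/+ control (-0.39, adjusted p = 0.00561) and, with the uncertain pairing, Synpo-/- (-0.42, adjusted p = 0.0216), and Mt2 and Mt3 did not. The length used for Mt1 was 1246 bases, the whole gene with introns, so the trend removed may not be that of its spliced transcript. These calls therefore do not set Mt1 apart from Mt2 and Mt3.

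**Figure D4:**
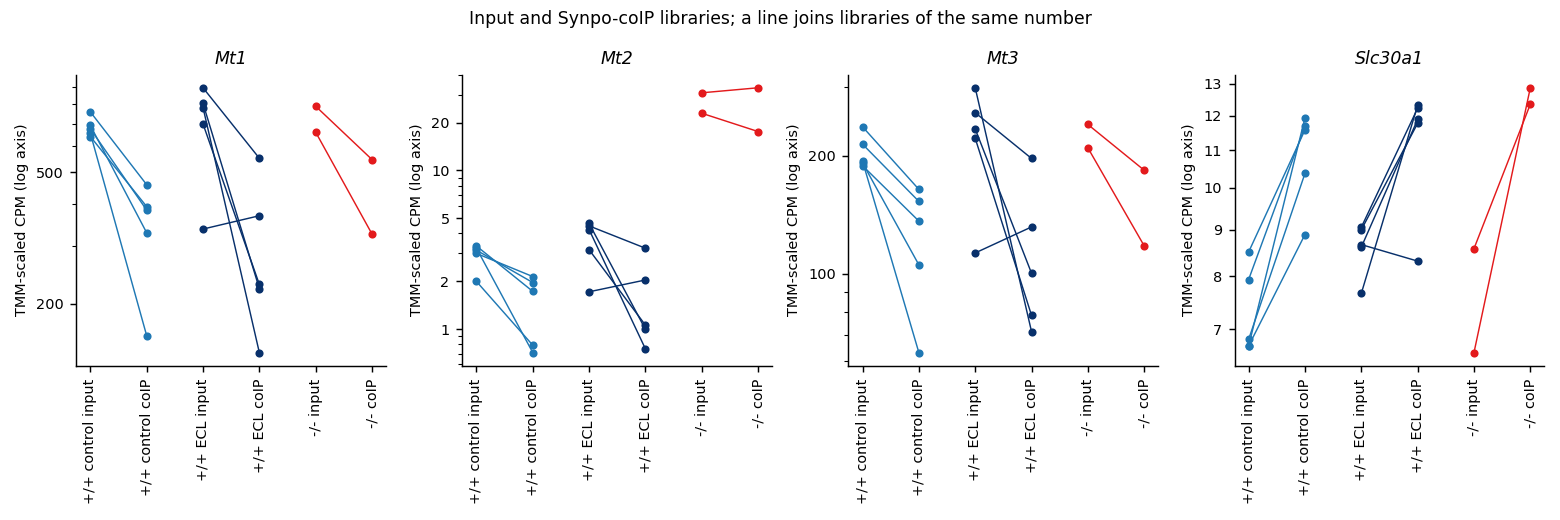
Mt1, Mt2, Mt3 and Slc30a1 in input and coIP libraries of the coIP experiment, in TMM-scaled CPM on log axes, with a line joining input and coIP of the same number (5 Synpo+/+ control, 5 Synpo+/+ ECL and 2 Synpo-/- pairs, the last by preparation number). Metallothionein lines fall and Slc30a1 lines rise, except in Synpo+/+ ECL lysate 3 for the metallothioneins, Synpo+/+ ECL lysate 4 for Slc30a1 and 1 Synpo-/- pair for Mt2.

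Slc30a1 went the other way in all 3 coIP comparisons. In Synpo+/+ controls it was at 7.94, 6.71, 6.83, 6.71 and 8.51 CPM in the inputs and at 11.7, 8.89, 10.4, 11.9 and 11.6 CPM in the coIPs, without overlap. The differences were 0.59 (SE 0.13, adjusted p = 0.00171) in control, 0.42 (SE 0.14, adjusted p = 0.0171) after ECL and 0.70 (SE 0.20, adjusted p = 0.0206) in Synpo-/-. It was higher in coIP in 5 of 5, 4 of 5 and 2 of 2 pairs, and the exception was ECL replicate 4. With the length trend removed Slc30a1 kept its calls, at 0.51, 0.38 and 0.68. The ECL call was lost with no filter on low counts (adjusted p = 0.0661), and the Synpo-/- call without input replicate 2 (adjusted p = 0.170).

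Slc30a3, Slc30a4 and Slc30a10 were not called in any coIP comparison without a block. With the lysate as a replicate block, Slc30a4 was called in Synpo+/+ control (0.22, adjusted p = 0.0284), and with block and length trend together Slc30a10 was called in Synpo-/- (-0.56, adjusted p = 0.0380), where the pairing is uncertain. With the length trend removed, Slc30a3 was called higher in coIP of Synpo+/+ ECL (0.67, adjusted p = 0.0428). Cell type markers moved in both directions between the fractions. In Synpo+/+ control, the 6 general neuron markers summed to 7800 to 9397 CPM in inputs and to 4638 to 6012 CPM in coIPs, yet 2 were called lower and 1 higher and their median difference was -0.15. The 9 granule cell markers summed to 136 to 172 and 159 to 209 CPM, with 3 called higher and 2 lower. Of 12 markers each, 5 astrocyte markers were called higher and 5 microglial markers lower. Over all genes 55.0% were called in this comparison, so the numbers of called markers lie near or below that share.

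The level of Mt2 itself differed between the sets of libraries. It was at 1.72 to 4.62 CPM in the 10 Synpo+/+ inputs and at 30.8 and 22.9 CPM in the 2 Synpo-/- inputs, although Mt1 was at 336 to 898 and at 790 and 660 CPM in them. Mt2 counts were 0.241 to 0.587% of Mt1 counts in all 20 Synpo+/+ libraries of the coIP experiment, 3.47 to 6.07% in the 4 Synpo-/- libraries and 2.42 to 3.80% in the 39 regional libraries of both genotypes. Genotype and set of libraries cannot be told apart within the coIP experiment, and the part of the antisense overlap was not tested, so the Mt2 values of this experiment are uncertain.

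Whether coIP over input differed between Synpo+/+ controls and Synpo-/- was tested directly, and 0 of 7 genes were called by edgeR and 0 by DESeq2, with 0 at an unadjusted p under 0.05. Over all genes 0% were called. The value farthest from 0 was that of Mt2, at -0.89 (SE 0.44, adjusted p = 0.714). For Mt1 it was -0.25 (SE 0.37) and for Slc30a1 -0.16 (SE 0.24). Synpo+/+ and Synpo-/- lysates thus gave the same direction for Mt1, Mt3 and Slc30a1, and a difference between them was not shown.

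Among the other genes of zinc handling, Slc30a5 was higher in coIP in all 3 comparisons (0.64, 0.73 and 0.93). It is an exporter of the secretory pathway. Of 14 importers tested, 6 were called higher in Synpo+/+ control, 5 in Synpo+/+ ECL and 0 in Synpo-/-, while their median differences were close, at 0.25, 0.27 and 0.28, beside 0.04, 0.02 and 0.02 over all genes. Over all genes 55.0%, 58.3% and 31.4% were called, and 53.7%, 52.3% and 47.8% of those calls were higher, so the importer counts in Synpo+/+ are not far from what genes at large gave. Slc39a2 had the largest importer values named, at 1.30 and 1.44. Of the AP-3 subunits, Ap3d1 (0.80, 0.74 and 0.62) and Ap3b2 (0.66, 0.80 and 0.53) were higher and Ap3s2 (-0.52, -0.58 and -0.75) was lower in all 3 comparisons. Atox1, a small copper chaperone, was lower in coIP of Synpo+/+ control (-1.18) and Synpo-/- (-1.05). In Synpo+/+ ECL it was not among the 2 lower copper genes of smallest p, which alone are named. Of the 8 copper genes, 2 were called higher and 5 lower in Synpo+/+ control, and 1 and 5 in Synpo+/+ ECL and in Synpo-/-. Of the 7 AP-3 subunits, 3 were higher and 4 lower in both Synpo+/+ comparisons, and 2 and 4 in Synpo-/-. The length trend was not removed from the values of these named genes.

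The lesion was also compared within input and within coIP of Synpo+/+ cultures. In both, 0 of 7 genes were called by edgeR and 0 by DESeq2, with 1 and 0 at an unadjusted p under 0.05, where 5.61% and 0.314% of all genes were called. Mt3 differed by 0.13 (adjusted p = 0.772) in input, which pools whole cultures, and by -0.10 in coIP. Slc30a3 differed by -0.46 in input (adjusted p = 0.163), from 16.4 to 30.1 CPM in controls to 12.8 to 23.5 CPM after ECL, and it was called (-0.63, adjusted p = 0.0487) without ECL input replicate 1.

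**Figure D5:**
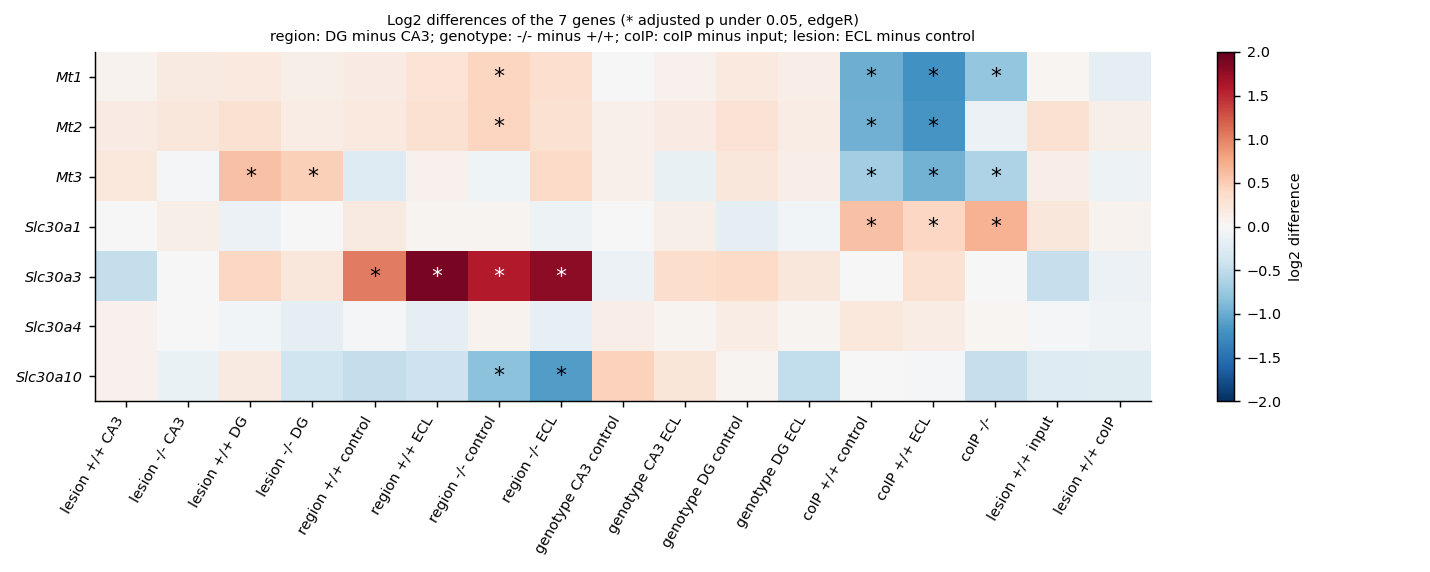
Log2 differences of the 7 genes (rows) in 17 comparisons (columns), red for higher and blue for lower, with an asterisk where the adjusted p by edgeR was under 0.05. The calls fall on Mt3 for the lesion in the DG, on Slc30a3, Slc30a10, Mt1 and Mt2 for the regions, on none for the genotypes, and on the metallothioneins and Slc30a1 for coIP against input.

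Across the 39 regional libraries, the genes whose log2 levels ran most like each member were named among 17462 genes with a mean of at least 1 CPM. These correlations are descriptions over libraries that share regions and lesion states. Mt1 ran most like Mt2 (r = 0.85, rho = 0.79), then like the ribosomal protein genes Rpl41 and Rpl32 (r = 0.80 each). Mt3 ran most like Szrd1 (r = 0.87), Mpv17 (0.86) and Ccdc12 (0.84), and had r = 0.63 with Mt1 and 0.49 with Mt2. Slc30a3 ran like E130308A19Rik (0.93), Xpr1 (0.93) and Sv2c (0.92), and Slc30a10 like Syn2 (0.91) and Aak1 (0.91). Between Slc30a3 and Slc30a10 r was -0.74 and rho -0.67. The nearest genes to Slc30a4 were Ugcg (0.79), Ppm1a (0.77) and Vapa (0.77), and those to Slc30a1 were Lsm14b (0.67), Trappc10 (0.66) and Pla2g12a (0.66).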

How the data were processed

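The authors made polyadenylated RNA libraries with a low-input kit, trimmed reads with cutadapt 3.5, mapped them with STAR 2.7.8a to GRCm38, kept libraries with mostly unique reads and summed them over GENCODE exons by gene with featureCounts 2.0.1, without regard to strand. CoIP libraries had longer paired reads, per the methods. How reads that map to several places were treated is not given in the sources used here. The deposited values are raw counts for 55291 gene symbols in 63 libraries, 39 regional and 24 of the coIP experiment, with total counts of 11601154 to 53682143. Of the symbols, 107 stand for more than 1 gene, and none of these is a member. No molecular identifiers were used, so counting error understates the spread, which was taken from replicates.

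Groups follow the labels. All fits were made in R 4.3.3 with edgeR 4.0.16 (TMM, filterByExpr, quasi-likelihood test), with Benjamini-Hochberg adjustment over all genes tested and calls at an adjusted p under 0.05. DESeq2 1.42.0, other size factors, no filter, removal of a trend on exon length (lowess, span 0.3, over genes with a mean count over 50), a replicate block, a fit of all regional groups and left-out libraries were alternatives. The fits were tested on simulated data. Whether cultures came from separate animals is not given, so p-values measure the spread between these samples, which may be technical in part.

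The members and lists were chosen with earlier results of these data known. Named are the 7 members, Synpo, up to 2 called genes per list, comparison and direction (those of smallest p), and the 3 genes most like each member by Pearson r, of which 1 is not reported here. Lists were 6 other SLC30 exporters, 14 SLC39 importers, Mtf1 and Mt4, 7 AP-3 subunits, 8 copper genes and cell type markers. Mt4 was not tested, as it had too few counts.

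Input and coIP libraries of Synpo+/+ with the same replicate number were taken as 1 lysate. In Synpo-/- the replicate and preparation numbers of the labels cross, so the pairing, made by preparation number, is uncertain. Their deviations from the group means correlated at 0.305 to 0.640 in Synpo+/+ control, 0.158 to 0.624 in Synpo+/+ ECL and 0.0865 in Synpo-/-. With this pairing as a replicate block, 5, 4 and 3 of the 7 genes were called in these comparisons, against 4, 4 and 3 without it.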

Additional observations from a re-analysis of the deposited data

Results flagged for a closer look

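A library that lay far from the rest of its group, by the ratio of its gap to the range of the group, was found 7 times among 70 groups of values checked, and chance alone gives about 1 in 20. In the regional experiment these were all values of Slc30a10. It was 14.2 CPM in Synpo+/+ DG ECL replicate 5 against 6.22 to 7.19 in the other 6 libraries, and the same library had 15.5 CPM of Prox1 and 4.39 CPM of Slc30a3. It was 12.6 CPM in Synpo-/- DG control replicate 5 against 4.57 to 7.74 in the rest, and this library had 120 CPM of Prox1. It was 11.2 CPM in Synpo-/- CA3 control replicate 3 against 13.6 to 14.2 in the rest.

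In the coIP experiment, Mt2 was 2.00 CPM in Synpo+/+ control input replicate 1 against 2.99 to 3.34 in the other inputs. Slc30a1 was 8.32 CPM in Synpo+/+ ECL coIP replicate 4 against 11.8 to 12.3 in the rest, the lysate in which Slc30a1 was not higher in coIP. Slc30a3 was 26.9 CPM in Synpo+/+ control coIP replicate 4 against 20.2 to 21.0 in the rest. Slc30a10 was 6.02 CPM in Synpo+/+ control coIP replicate 1 against 8.15 to 9.02 in the rest.

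The effect of lesion on Slc39a12 differed between the regions of Synpo-/- cultures, by edgeR's interaction test. It was 0.43 (adjusted p = 0.0235) in the DG and -0.37 (adjusted p = 0.553) in CA3, and their difference was 0.77 (SE 0.190, adjusted p = 0.0380). In Synpo+/+ the same difference was 0.36 (adjusted p = 1.00). In the Synpo-/- interaction 1.12% of all genes were called. Of 12 markers each, 4 astrocyte and 8 microglial markers were called higher and 0 lower there. The part of cell content in the Slc39a12 difference was not tested.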

How the results depend on the processing

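Of 1925 values of members under the alternatives, 1823 kept their call or stayed uncalled within the SE of the main value. A call was lost in 30 and gained in 12, and 60 uncalled values moved by the SE or more. Among values called in either fit 0 changed sign, and the sign of values uncalled in both was not checked. The number of members called moved by over 1.5 times in these settings. With a replicate block it was 2 for the lesion in Synpo+/+ DG (1 without), 0 in Synpo-/- DG (1 without; Mt3 at 0.52, adjusted p = 0.0518) and 3 for the regions in Synpo+/+ ECL (1 without). Numbers of regional libraries share no source in the labels, and their deviations correlated at -0.348 to 0.434, so this block pairs libraries by number alone. With the length trend removed the count was 1 of 7 in coIP Synpo+/+ control, 2 in coIP Synpo+/+ ECL and 1 in coIP Synpo-/-, and with the replicate block added it was 2 and 2 in Synpo+/+. In the fit of all 8 regional groups it was 0 for the regions in Synpo+/+ controls (Slc30a3 adjusted p = 0.0956). Without Synpo+/+ DG ECL replicates 1 and 3, chosen after seeing the data, it was 0 for the regions in Synpo+/+ ECL. With each library left out in turn it ran from 0 to 1 for the lesion in Synpo+/+ CA3, 0 to 1 for the regions in Synpo+/+ controls, 0 to 2 for the regions in Synpo+/+ ECL and 0 to 1 for the lesion in Synpo+/+ input. The replicate block changed no other count of member calls by over 1.5 times. Within genotype, the block put Mt2 in the genotype comparison of coIP at -0.87 (adjusted p = 0.204).

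Over all genes, calls for the lesion in Synpo+/+ DG were 64.6% higher of 2886, and 36.4% of 2321 with the length trend removed. For the regions in Synpo-/- controls 51.2% of calls were higher in the DG, and 35.2% in the fit of all groups. Calls for the lesion in Synpo+/+ CA3 were 397, against 1457 by DESeq2 and 7 in the fit of all groups, those for the regions in Synpo+/+ ECL 492, against 4999 with the replicate block, 1360 by DESeq2 and 2036 in the fit of all groups, those for the genotypes in CA3 controls 1, against 834 by DESeq2, and those for the lesion in Synpo-/- DG 1989, against 662 with the block. The causes were not tested. Groups of 2 or 3 CA3 libraries limit every Synpo+/+ comparison with CA3.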
